A study of Mus musculus and Homo sapiens with 12 samples.

Results

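The transcription factor p53 answers DNA damage and other stress by switching on a wide set of genes. Described here are 10 genes, named as its targets, that act in DNA repair, nucleotide supply and metabolism. They are DDB2, XPC, ERCC5, POLK, RRM2B, SESN1, SESN2, TIGAR, PHLDA3 and TRIAP1, chosen by name as p53 targets of these functions and matched by symbol without regard to case. The genes, and the pathway lists below, were chosen with earlier results of these data known. Their values beside the shares of all genes tested are therefore a description and not a test. Whether p53 acts on each of the 10 genes in both species was not tested. All 10 were found among the 55487 genes of the mouse count table and the 78932 of the human one, and all 10 were among the 14918 mouse and 20188 human genes tested. Counts of polyadenylated RNA were available for 12 libraries, 3 in each of 4 groups. The mouse experiment used live, lineage-negative, Kit-positive (LK) progenitors sorted from fetal liver at embryonic stage E13.5. Its control group (WT) was Ddx21f/f, and its knockout group (cKO) was Vav-Cre; Ddx21f/f, so that both groups carried loxP-flanked alleles of Ddx21, which encodes a nucleolar RNA helicase. Cre under the Vav promoter acts in blood cells, and no group with Cre and unflanked Ddx21 was analysed here. The human experiment used hematopoietic stem cell-like cells derived from the embryonic stem cell line H1. Lentivirus with mCherry delivered either the hairpin shNC, a control, or the hairpin shDDX21, which targets DDX21. Cells with CD34, CD45, CD43 and the vector were sorted 2 days after transduction. Each human arm rests on 1 hairpin, and separate embryos or cultures are not named for the 3 libraries of a group, so every p-value measures the spread between libraries, which may be technical.

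As background, nucleotide excision repair cuts out damage that bends the helix, such as ultraviolet photoproducts. DDB2 and XPC find the damage, and ERCC5 (also called XPG) makes the cut on its 3′ side. POLK is a DNA polymerase that copies past damaged bases, and RRM2B is the p53-induced small subunit of ribonucleotide reductase, the enzyme that makes deoxynucleotides. SESN1 and SESN2 are sestrins, which restrain the growth kinase complex TORC1 and limit oxidative damage, and TIGAR lowers fructose-2,6-bisphosphate, which slows glycolysis and favours the pentose phosphate pathway. PHLDA3 competes with AKT for membrane lipids, and TRIAP1 is a small protein that moves phosphatidic acid inside mitochondria. In blood progenitors p53 is kept in check during normal growth, and disturbance of nucleolar ribosome production is a known way to activate it.

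Libraries held 21116079 to 23898130 counts in the mouse and 15289510 to 19798608 in the human experiment. The lowest count of any of the 10 genes in any library was 45 in the mouse and 80 in the human cells. Levels are given as CPM, which are counts scaled to a common library size with TMM factors. Differences come from edgeR's quasi-likelihood test, and genes with an adjusted p (Benjamini-Hochberg, over all genes tested) under 0.05 were called. Ddx21 went from 1424 ± 12.5 in WT to 280.2 ± 3.62 CPM in cKO, and DDX21 from 470.1 to 68.3 CPM in the human arms. For the cyclin-dependent kinase inhibitor p21, Cdkn1a rose from 5.08 to 284 CPM in the mouse and CDKN1A from 814 to 1227 CPM in the human cells. The MDM2 ubiquitin ligase, which degrades p53, rose from 63.6 to 359 CPM and from 342 to 414 CPM.

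In the mouse, 6 of the 10 genes rose in cKO and 0 fell. Phlda3 changed most, then Ercc5, Sesn2 and Polk at about the same fold, then Rrm2b and Tigar, while Ddb2, Xpc, Sesn1 and Triap1 were not called. Of all genes tested, 36.5% were called, 20.7% higher and 15.8% lower in cKO. The median log2 fold change of the 10 genes was 0.56, against 0.00057 over all genes tested. In 8 of the 10 every cKO library lay above every WT library, which held for 27.6% of all genes tested, and in 0 of the 10 every one lay below, which held for 21.4%. With shDDX21, 6 of the 10 human genes rose, 1 fell and 3 were not called. Of all human genes tested 52.7% were called, 25.3% higher and 27.4% lower. The median human log2 fold change was 0.27, against 0.0052 over all genes, and every shDDX21 library lay above every shNC library in 6 of the 10, compared with 27.9% of all genes, and below in 1, compared with 29.5%. PHLDA3, SESN2 and RRM2B rose in both experiments, ERCC5 and POLK passed the test in the mouse and not in the human cells, and DDB2, SESN1 and TRIAP1 passed it in the human cells and not in the mouse. TIGAR passed in opposite directions and XPC in neither. Of the 10313 genes matched between experiments, 6.43% were called higher in both and 12.8% were called in opposite directions. In bulk RNA, a change in the mix of cells cannot be told apart from a change within each cell.

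**Figure D1:**
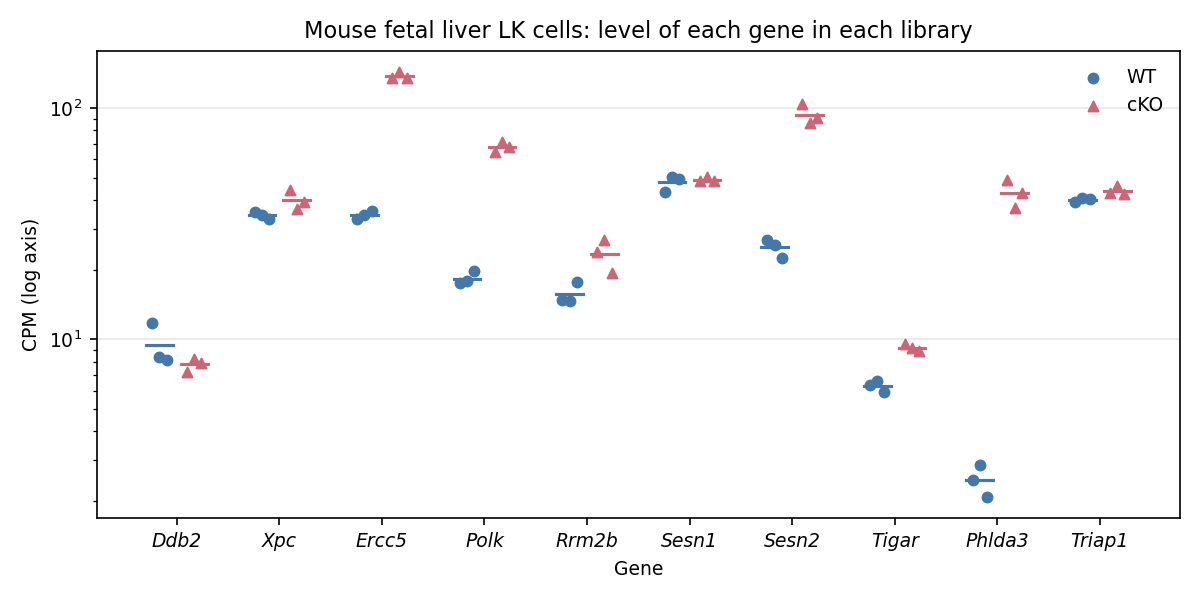
Level of each of the 10 genes in each mouse library, in CPM on a log axis. Circles are the 3 WT libraries, triangles the 3 cKO libraries and short lines the group means. Phlda3, Ercc5, Sesn2 and Polk stand far apart between groups, while the Ddb2 and Sesn1 libraries of the groups overlap.

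**Figure D2:**
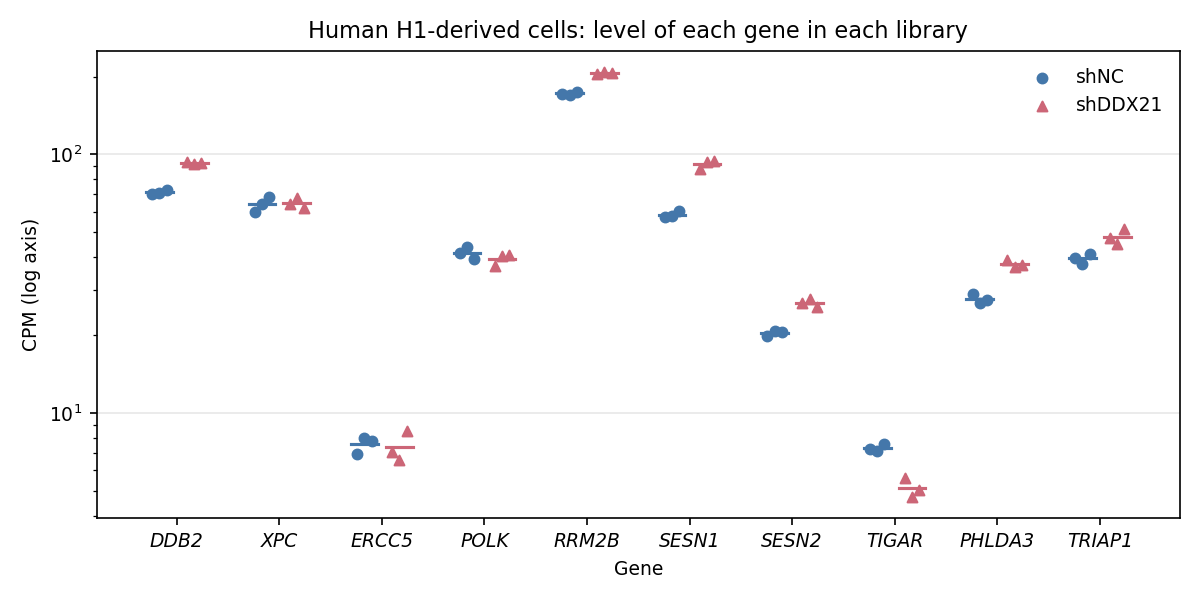
Level of each of the 10 genes in each human library, in CPM on a log axis. Circles are the 3 shNC libraries, triangles the 3 shDDX21 libraries and short lines the group means. The widest separation upward is that of SESN1, TIGAR is lower in all 3 shDDX21 libraries, and XPC, POLK and ERCC5 overlap.

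Because p53 activates genes through a defined DNA element, the mouse start-site sequences were read for it. Windows of 250 bases before to 50 after each start were taken from RefSeq on GRCm38.p6, where 7 of the 10 genes had 9 windows between them; Ddb2, Xpc and Rrm2b had none. The p53 half-site consensus of 10 letters, which is its own reverse complement and so reads alike on both strands, was found in 2 of the 9 windows and in 8.36% of all 32851 windows. A pair of half-sites at most 1 base apart, with up to 2 mismatches over both but the C and G cores intact, was found in 0 of the 9 and in 0.682% of all windows. Both matches are set beside those of 2 p53 targets outside the group, Cdkn1a and Ccng1, to show a lone half-site and a pair in letters. Those 2 were picked by name, and how many other p53 targets hold a pair was not counted. Capitals mark the match. Each distance is to the start of the window that was read, and a gene can have other starts.
Sesn1 (chr10:41887251-41887290, plus strand, in an intron, 173 to 164 bases before an internal start): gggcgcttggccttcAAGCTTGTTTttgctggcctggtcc
Polk (chr13:96519394-96519433, minus strand, in an intron, 231 to 222 bases before an internal start): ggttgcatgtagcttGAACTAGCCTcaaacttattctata
Cdkn1a (chr17:29090913-29090962, plus strand, intergenic, 51 to 32 bases before the start, 1 mismatch): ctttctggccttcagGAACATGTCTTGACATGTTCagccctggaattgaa
Ccng1 (chr11:40755447-40755496, minus strand, intergenic, 195 to 176 bases before the start, 1 mismatch): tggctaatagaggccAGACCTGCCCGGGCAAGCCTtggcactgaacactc
Of the pair with a half-site, Polk rose in cKO and Sesn1 was not called. The windows of Phlda3, Ercc5, Sesn2, Tigar and Triap1 held no match to these letters. A match is a description of sequence and not evidence of binding. Sequence outside the windows was not read, so a window without a match does not mean a gene without a site.

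Damage recognition came first in the order of repair. Ddb2 (ENSMUSG00000002109; GRCm38 chromosome 2, 91211572 to 91236982, minus strand) stood at 11.7, 8.37 and 8.17 CPM in WT and at 7.23, 8.19 and 7.94 CPM in cKO. The groups overlapped, and WT replicate 1 was the high library. The log2 fold change was -0.28 (SE 0.16, 95% interval -0.64 to 0.090, adjusted p = 0.204), and -0.089 without WT replicate 1 (adjusted p = 0.600). On the opposite strand Acp2 shares 23.8% of the Ddb2 exon length, and whether counting used strand is not given in the sources used here. Human DDB2 (ENSG00000134574; chromosome 11, 47214465 to 47239217, plus strand, in the coordinates of the deposited table) was 70.2, 71.2 and 72.8 CPM in shNC and 93.5, 91.9 and 92.6 CPM in shDDX21. All 3 shDDX21 libraries were above all controls, by 0.38 on the log2 scale (SE 0.038, adjusted p = 6.27e-14). DDB1, the larger partner of DDB2 in the damage-binding complex, gave a log2 fold change of 0.091 in the mouse (adjusted p = 0.0950) and fell by 0.14 in the human cells (adjusted p = 2.40e-07).

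Xpc, which senses distorted DNA across the genome, was called in neither experiment. Mouse Xpc (ENSMUSG00000030094; chromosome 6, 91489305 to 91515888, minus strand) was 35.5, 34.4 and 33.1 CPM in WT and 44.3, 36.4 and 39.0 CPM in cKO. The cKO libraries lay above the WT libraries but were more scattered, and the log2 fold change of 0.22 (SE 0.082, 95% interval 0.023 to 0.41) had an adjusted p of 0.0785. Without cKO replicate 2 it was called (0.29, adjusted p = 0.0243). Human XPC (ENSG00000154767; chromosome 3, 14145145 to 14178621, minus strand) was 60.0, 64.4 and 68.4 CPM in shNC and 64.4, 67.9 and 62.2 CPM in shDDX21. The groups overlapped throughout, at a log2 fold change of 0.014 (95% interval -0.076 to 0.10, adjusted p = 0.824). Other genes share 25.1% of its exon length, none on the same strand. RAD23B, which stabilises XPC, gave -0.051 in the mouse (adjusted p = 0.351) and fell by 0.083 on the log2 scale in the human cells (adjusted p = 0.00853).

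Ercc5 had the smallest p of the 10 genes in the mouse. It encodes the endonuclease that cuts 3′ of the lesion (ENSMUSG00000026048; chromosome 1, 44147744 to 44181260, plus strand). The WT libraries held 740, 709 and 776 counts of it, and the cKO libraries 3088, 3533 and 2972. The mean level was 34.6 ± 1.41 CPM over WT and 137 ± 4.94 CPM over cKO (SD, n = 3), and the groups lay far apart. Ercc5 was 3.98-fold higher (log2 fold change 1.99, SE 0.051, adjusted p = 6.79e-07). Human ERCC5 (ENSG00000134899; chromosome 13, 102845831 to 102875995, plus strand) was 6.93, 7.96 and 7.77 CPM in shNC and 7.08, 6.58 and 8.54 CPM in shDDX21. These overlapped, and the 95% interval of the log2 fold change, -0.27 to 0.22, does not reach the mouse value (adjusted p = 0.885). A gene on the same strand, with 1 count over the control libraries and 0 over the perturbed ones, shares 33.0% of the human ERCC5 exon length. That gene therefore received almost none of the reads that fit both genes. Whether such reads were counted for ERCC5 or left out is not given in the sources used here, so the human level is uncertain. The genes of the partner nuclease, which cuts on the 5′ side, were not called. Ercc4 gave -0.077 (adjusted p = 0.546) and Ercc1 -0.55 (adjusted p = 0.0572) in the mouse. The human values were -0.14 for ERCC4 (adjusted p = 0.118) and 0.036 for ERCC1 (adjusted p = 0.525).

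Polk (ENSMUSG00000021668; chromosome 13, 96480690 to 96542579, minus strand) encodes DNA polymerase kappa. Its level was 17.4, 17.8 and 19.7 CPM in WT and 64.4, 71.0 and 68.1 CPM in cKO. Every cKO library exceeded every WT library, and the fitted change was 3.70-fold (log2 fold change 1.89, SE 0.071, adjusted p = 3.34e-06). Human POLK (ENSG00000122008; chromosome 5, 75511845 to 75609991, plus strand) was 41.4, 44.0 and 39.4 CPM in shNC and 36.9, 40.4 and 40.8 CPM in shDDX21. Those libraries overlapped, with a log2 fold change of -0.079 (95% interval -0.19 to 0.030, adjusted p = 0.228). POLH, the polymerase that copies past ultraviolet photoproducts and is itself a p53 target, went the other way in the mouse. Polh fell from 96.9 to 82.2 CPM (adjusted p = 0.00443), and human POLH rose from 41.1 to 47.5 CPM (adjusted p = 0.000231).

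Rrm2b (ENSMUSG00000022292; chromosome 15, 37923952 to 37961318, minus strand) was 14.8, 14.7 and 17.6 CPM in WT and 23.8, 26.8 and 19.3 CPM in cKO. The groups did not overlap, but cKO replicate 3 lay closer to the highest WT library than to cKO replicate 2. Rrm2b was 1.48-fold higher (log2 fold change 0.57, SE 0.14, adjusted p = 0.0159). The call was lost without WT replicate 1 (log2 fold change 0.53, adjusted p = 0.0607) and without WT replicate 2 (0.52, adjusted p = 0.0669). Human RRM2B (ENSG00000048392) was far tighter, at 172, 170.2 and 175 CPM in shNC and 205, 208 and 207 CPM in shDDX21. It was 1.20-fold higher in shDDX21 (log2 fold change 0.26, SE 0.028, adjusted p = 4.08e-13). Its partner genes in ribonucleotide reductase fell. Rrm1, the large subunit, went from 953 to 742 CPM in the mouse (adjusted p = 0.000529) and from 118 to 47.0 CPM in the human cells (adjusted p = 4.12e-42). RRM2, the small subunit used in dividing cells, fell from 495 to 461 CPM (adjusted p = 0.0365) and from 187 to 129 CPM (adjusted p = 2.90e-26).

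Sesn2 rose in both experiments, and Sesn1 was called in the human cells. Mouse Sesn2 (ENSMUSG00000028893; chromosome 4, 132492032 to 132510501, minus strand) was 27.0, 25.5 and 22.6 CPM in WT and 104, 85.9 and 90.8 CPM in cKO. The groups were well separated, at 3.74-fold (log2 fold change 1.90, SE 0.096, adjusted p = 1.20e-05). Human SESN2 (ENSG00000130766; chromosome 1, 28259518 to 28282491, plus strand) was 19.9, 20.8 and 20.6 CPM in shNC and 26.6, 27.6 and 25.7 CPM in shDDX21, 1.30-fold higher (log2 fold change 0.38, SE 0.069, adjusted p = 2.28e-06). Here too the groups did not overlap. Mouse Sesn1 (ENSMUSG00000038332; chromosome 10, 41809935 to 41908424, plus strand) was 43.5, 50.1 and 49.4 CPM in WT and 48.3, 50.4 and 48.4 CPM in cKO. Its groups overlapped (log2 fold change 0.041, 95% interval -0.12 to 0.20, adjusted p = 0.665), and without WT replicate 1 the sign turned, to -0.023. Human SESN1 (ENSG00000080546; chromosome 6, 108984309 to 109094846, minus strand) was 57.4, 57.9 and 60.3 CPM in shNC and 88.0, 93.7 and 94.7 CPM in shDDX21. That was the largest change of the 10 genes in the human cells, 1.57-fold (log2 fold change 0.65, SE 0.041, adjusted p = 1.77e-23). SESN3, the remaining sestrin, rose from 8.13 to 18.0 CPM in the mouse (adjusted p = 0.000120) and from 39.7 to 82.0 CPM in the human cells (adjusted p = 1.46e-31).

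The make-up of the sestrin pool, measured per exon length after the values above had been seen, changed differently in the mouse and the human cells. Exon lengths count all isoforms, so the shares themselves are not compared between experiments. In WT, Sesn1 was 60.7 ± 3.45% of the sum of the 3 sestrins and Sesn2 36.6 ± 3.67%. In cKO, Sesn1 was 30.6 ± 2.37% and Sesn2 66.5 ± 2.59% (SD, n = 3 each), so the order of the pair was exchanged. Human SESN1 was 45.5 ± 0.639% in shNC and 45.0 ± 0.976% in shDDX21, SESN2 went from 33.4 ± 0.658% to 27.4 ± 0.951%, and SESN3 from 21.2 ± 0.813% to 27.6 ± 0.0267%. In CPM, SESN3 (39.7) was above SESN2 (20.4) in shNC, so the order of their shares there reflects the exon lengths. The groups did not overlap for the mouse Sesn1 and Sesn2 shares or the human SESN2 and SESN3 shares, which is an exact two-sided permutation p of 0.1, the smallest that 3 against 3 libraries allow. The ratio of RRM2B to RRM2 per exon length depends on exon lengths that count all isoforms, so its level is not compared between experiments. The ratio was 0.00961 ± 0.000982 in WT and 0.0153 ± 0.00223 in cKO, and 1.56 ± 0.0144 in shNC and 2.72 ± 0.0181 in shDDX21 (SD, n = 3 each, exact permutation p of 0.1 in each experiment). In CPM, RRM2B (172) was below RRM2 (187) in shNC, so the ratio of 1.56 there reflects the exon lengths. Both ratios went up with loss of DDX21, by 1.59-fold and 1.74-fold. The human change in RRM2 was larger than that in RRM2B, and the mouse change in Rrm2b was larger than that in Rrm2.

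**Figure D3:**
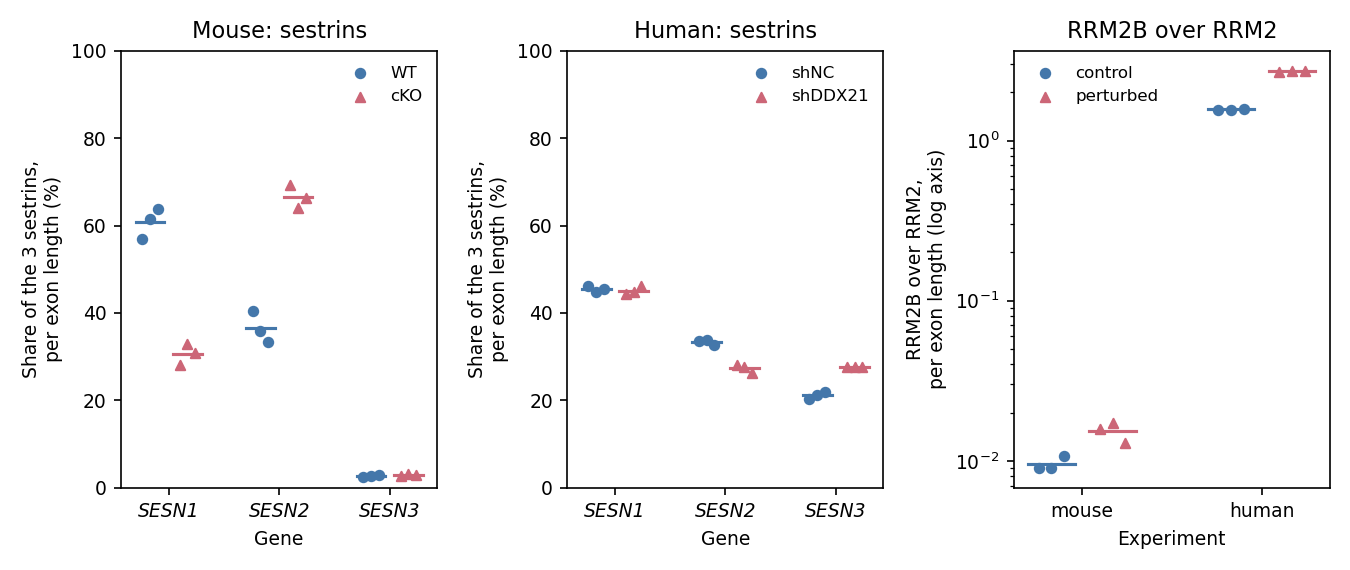
Share of each sestrin in the sum of the 3 per exon length, in percent, for mouse and human libraries, and the ratio of RRM2B to RRM2 per exon length on a log axis. Circles are control libraries, triangles perturbed libraries and short lines means. Mouse Sesn2 goes from 36.6% to 66.5% while human SESN1 is 45.5% and 45.0%, and the RRM2B to RRM2 ratio is higher in all perturbed libraries.

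Tigar is the gene that was called in opposite directions. Mouse Tigar (ENSMUSG00000038028; chromosome 6, 127085116 to 127109557, minus strand) was low, at 6.37, 6.62 and 5.89 CPM in WT, and stood at 9.58, 9.16 and 8.89 CPM in cKO. All cKO libraries were above all WT libraries, by 1.46-fold (log2 fold change 0.55, SE 0.093, adjusted p = 0.00355). Human TIGAR (ENSG00000078237; chromosome 12, 4307763 to 4360028, plus strand) was 7.25, 7.11 and 7.60 CPM in shNC and 5.60, 4.74 and 5.01 CPM in shDDX21. It fell by 0.51 on the log2 scale (SE 0.13, adjusted p = 0.000672), from 137, 109 and 135 counts with the control hairpin to 109, 80 and 88 with shDDX21. A single gene on the same strand, with 1 count over the control libraries and 1 over the perturbed ones, shares 18.1% of the human exon length. As for ERCC5, the human level is uncertain. PFKFB3, whose enzyme makes the fructose-2,6-bisphosphate that TIGAR removes, moved the same way as TIGAR in each experiment. Pfkfb3 rose by 0.31 on the log2 scale in the mouse (adjusted p = 0.00639), and PFKFB3 fell by 0.37 in the human cells (adjusted p = 2.42e-07).

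Phlda3 rose furthest of the 10 genes in the mouse. This gene (ENSMUSG00000041801; chromosome 1, 135766119 to 135769136, plus strand) was counted 55, 59 and 45 times in the WT libraries, against 1122, 916 and 949 times in the cKO libraries. The level went from 2.48 ± 0.392 to 43.0 ± 5.87 CPM (SD, n = 3 each), with no overlap. The change was 17.4-fold (log2 fold change 4.12, SE 0.15, 95% interval 3.76 to 4.48, adjusted p = 3.25e-06), and ranked 108 from the top of the 14918 tested genes. Per exon length it was the lowest of the 10 genes in WT and the second highest in cKO. Human PHLDA3 (ENSG00000174307; chromosome 1, 201464278 to 201469237, minus strand) was already present at 28.8, 26.6 and 27.4 CPM in shNC and stood at 39.0, 36.6 and 37.2 CPM in shDDX21. All shDDX21 libraries were higher, by 1.36-fold (log2 fold change 0.44, SE 0.060, adjusted p = 1.21e-09). A single same-strand gene, with 0 counts over the control libraries and 0 over the perturbed ones, shares 18.4% of its exon length. Among its relatives, mouse Phlda1 was at 0.202 CPM in WT, under the limit of 0.449 CPM on low values, and at 1.37 CPM in cKO. It entered the test through the cKO libraries alone, so its call is not used. Human PHLDA1 fell by 0.47 on the log2 scale (adjusted p = 6.76e-13).

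Triap1 (ENSMUSG00000029535; chromosome 5, 115341225 to 115343569, plus strand) had the highest level per exon length of the 10 genes in both mouse groups. It was 39.1, 40.6 and 40.4 CPM in WT and 43.1, 46.0 and 42.5 CPM in cKO. The libraries did not overlap, but the log2 fold change of 0.13 (SE 0.056, 95% interval 0.00060 to 0.26) was not called (adjusted p = 0.105). Human TRIAP1 (ENSG00000170855; chromosome 12, 120443964 to 120446384, minus strand) was 39.8, 37.6 and 41.4 CPM in shNC and 47.5, 45.1 and 51.7 CPM in shDDX21, and all shDDX21 libraries were higher. It rose 1.21-fold (log2 fold change 0.28, SE 0.053, adjusted p = 6.87e-06). PRELID1, which binds TRIAP1 to carry phosphatidic acid, fell by 0.35 on the log2 scale in the mouse (adjusted p = 0.0313) and gave -0.034 in the human cells (adjusted p = 0.505).

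**Figure D4:**
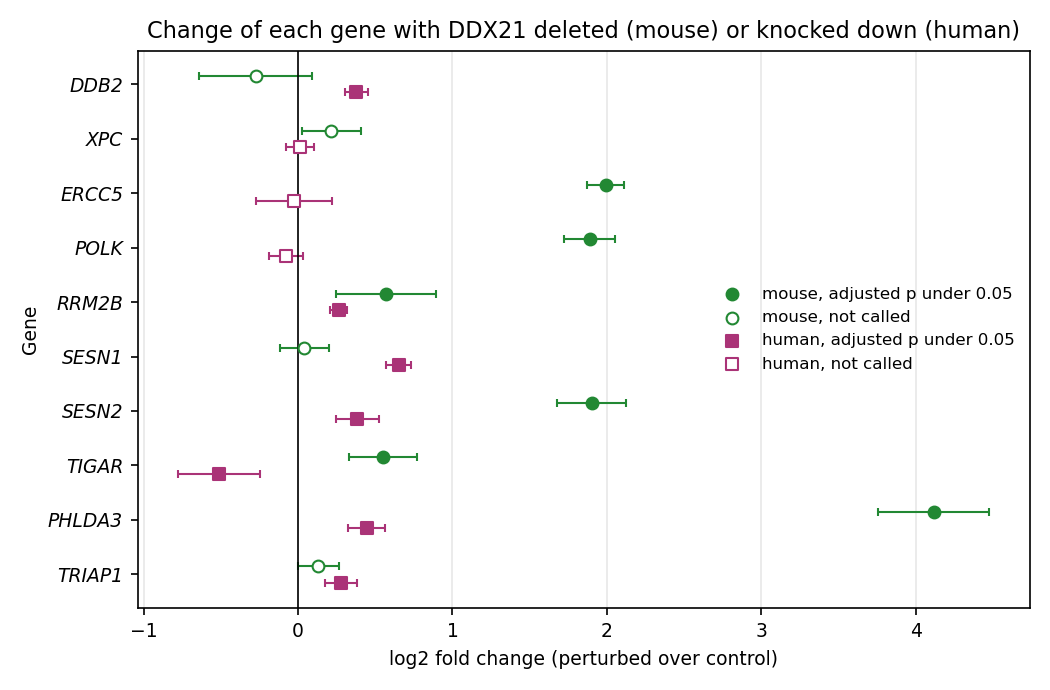
Log2 fold change of each gene, perturbed over control, with its 95% interval, for the mouse (green circles) and the human cells (purple squares). Filled symbols have an adjusted p under 0.05. Phlda3, Ercc5, Sesn2 and Polk lie between 1.89 and 4.12 in the mouse, the human values lie between -0.51 and 0.65, and TIGAR lies on opposite sides of 0.

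The difference between the experiments was tested as an interaction in a fit of all 12 libraries, with 10313 genes matched by symbol. That fit estimated the spread of each gene over both experiments together, although the mouse libraries varied more than the human ones. The SE of the TIGAR difference, 0.126, was under that of the human change alone, 0.132. For DDB2 it was 0.148, against 0.156 for the mouse change alone. The intervals and p-values of the differences may therefore be too small. It was called for 7 of the 10 genes, and for 56.2% of all matched genes. The mouse change exceeded the human one for PHLDA3 (difference of log2 fold changes 3.67, SE 0.16), ERCC5 (2.02, SE 0.12), POLK (1.97, SE 0.094), SESN2 (1.52, SE 0.12) and TIGAR (1.06, SE 0.13). It was below the human one for DDB2 (-0.65, SE 0.15) and SESN1 (-0.61, SE 0.079). Of all matched genes, 35.8% were called above and 20.4% below. XPC (0.20, adjusted p = 0.115), RRM2B (0.31, adjusted p = 0.0707) and TRIAP1 (-0.15, adjusted p = 0.152) were not called, and their 95% intervals were -0.023 to 0.43, 0.013 to 0.60 and -0.33 to 0.035. The RRM2B difference was called without WT replicate 3 (0.40, adjusted p = 0.0217) or cKO replicate 3 (0.43, adjusted p = 0.00424), and the XPC difference without cKO replicate 2 (0.28, adjusted p = 0.0224). Over the 10 genes the Spearman correlation of the mouse and human log2 fold changes was -0.14, given as a description. Human ERCC5, TIGAR and PHLDA3 share exon sequence with same-strand genes, so their levels are uncertain. Species, cell source, deletion or knockdown, and the time since loss of DDX21 all differ between the experiments and cannot be told apart.

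In CPM, which is not divided by exon length, the increase sat in few genes. The 10 genes summed to 234 CPM in WT and 515 CPM in cKO. Ercc5 added 103 CPM, Sesn2 68.5, Polk 49.5 and Phlda3 40.5, and Rrm2b added 7.60. The human sum went from 511 to 621 CPM, of which RRM2B added 34.6, SESN1 33.6 and DDB2 21.3 CPM. Ercc5 led the mouse sum with a 3.98-fold change, and RRM2B led the human sum with a 1.20-fold change.

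Other genes of these pathways moved in both directions. Over all 8 lists 44 of 160 tested mouse genes were called higher and 34 lower, beside 20.7% and 15.8% of all genes tested. The total mixes unlike lists, since 24 of the 44 and 1 of the 34 are p53 targets in arrest, feedback and death. Of the 44, 4 entered the test through cKO alone. The single lists are read against the shares of all genes tested. In the mouse, of 31 other nucleotide excision repair factors 5 rose, 8 fell and 18 were not called (median log2 fold change -0.092). The replication ligase Lig1 fell by 0.49 on the log2 scale (adjusted p = 0.000160), as did Cul4a, the scaffold of the DDB2 ubiquitin ligase, by 0.30 (adjusted p = 0.000578). Of 14 translesion synthesis genes 2 rose and 3 fell (median 0.023). Rev1, the scaffold on which translesion polymerases gather, rose by 0.68 (adjusted p = 0.000141), and Polq, the polymerase of end joining by short homologies, fell by 0.69 (adjusted p = 4.92e-05). Of 16 deoxynucleotide supply genes 2 rose and 9 fell (median -0.14), among them Dut, which removes dUTP (-0.39, adjusted p = 0.00123). In the sestrin and TORC1 list 5 of 30 rose and 4 fell (median -0.038). There Ddit4, a stress-induced inhibitor of TORC1, rose from 0.884 to 28.3 CPM (log2 fold change 4.99, adjusted p = 1.64e-06). Among 18 sugar phosphate genes 3 rose and 3 fell (median -0.13), with Rpe up by 0.48 (adjusted p = 0.000240) and Rpia at -0.40 (adjusted p = 0.000307), both enzymes of the pentose phosphate pathway. In the PHLDA and AKT list 3 of 11 rose and 2 fell (median -0.029), and 1 of these increases is Phlda1, tested through cKO alone. Of 11 TRIAP1 partners 0 rose and 4 fell (median -0.11), Prelid2 by -0.48 (adjusted p = 0.00329) and Tamm41 by -0.22 (adjusted p = 0.0166). Of 29 p53 targets in arrest, feedback and death 24 rose and 1 fell (median 1.90), which includes Mdm2 (log2 fold change 2.50) and Cdkn1a (5.81), both with an adjusted p of 5.91e-08. Of these 24, Plk2, Fas and Ephx1 entered the test through cKO alone.

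Of 158 tested human pathway genes, 49 were called higher and 68 lower, beside 25.3% and 27.4% of all genes tested. The p53 targets in arrest, feedback and death made up 14 of the 49 and 6 of the 68. Of 29 excision repair factors 4 rose and 15 fell (median -0.13), with the clamp gene PCNA at -0.44 (adjusted p = 4.65e-18) and LIG1 at -0.39 (adjusted p = 7.34e-14). Of 14 translesion genes 3 rose and 8 fell (median -0.17). USP1, which removes ubiquitin from PCNA, fell by 1.11 on the log2 scale (adjusted p = 6.45e-34), and RAD18, which attaches it, by 0.71 (adjusted p = 6.45e-15). Of 16 deoxynucleotide genes 3 rose and 11 fell (median -0.41), with DUT at -1.12 (adjusted p = 2.10e-36). The sestrin and TORC1 list had 9 of 29 higher and 11 lower (median -0.038), and MTOR, the kinase of TORC1, fell by 0.69 (adjusted p = 4.26e-31). Of 18 sugar phosphate genes 10 rose and 6 fell (median 0.15), while hexokinase HK2 fell by 1.15 (adjusted p = 6.67e-41) and the phosphofructokinase PFKP by 0.59 (adjusted p = 3.84e-26). In the PHLDA and AKT list 4 of 11 rose and 7 fell (median -0.16). Its lipid phosphatase INPP5D rose by 0.39 (adjusted p = 5.70e-19) and the kinase AKT2 by 0.30 (adjusted p = 1.34e-14). Of 11 TRIAP1 partners 2 rose and 4 fell (median -0.081), with PRELID2 at -0.42 (adjusted p = 1.82e-07) and the cardiolipin pathway enzyme PGS1 at 0.24 (adjusted p = 7.36e-06). The p53 targets in arrest, feedback and death were divided, with 14 of 30 higher and 6 lower (median 0.10). CCNG1, a cyclin that takes part in p53 feedback, rose by 0.80 (adjusted p = 1.91e-43) and TP53INP1, a p53-induced stress protein, by 0.87 (adjusted p = 1.43e-39). The split of all pathway calls depended on scaling and on single mouse libraries. In the mouse it was 44 higher and 34 lower, and 50 and 20 with total counts. Leaving out WT replicate 1 gave 41 and 22, leaving out WT replicate 2 gave 40 and 21, and leaving out cKO replicate 3 gave 35 and 19. Human calls were 49 and 68, and 61 and 54 with upper-quartile factors.

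**Figure D5:**
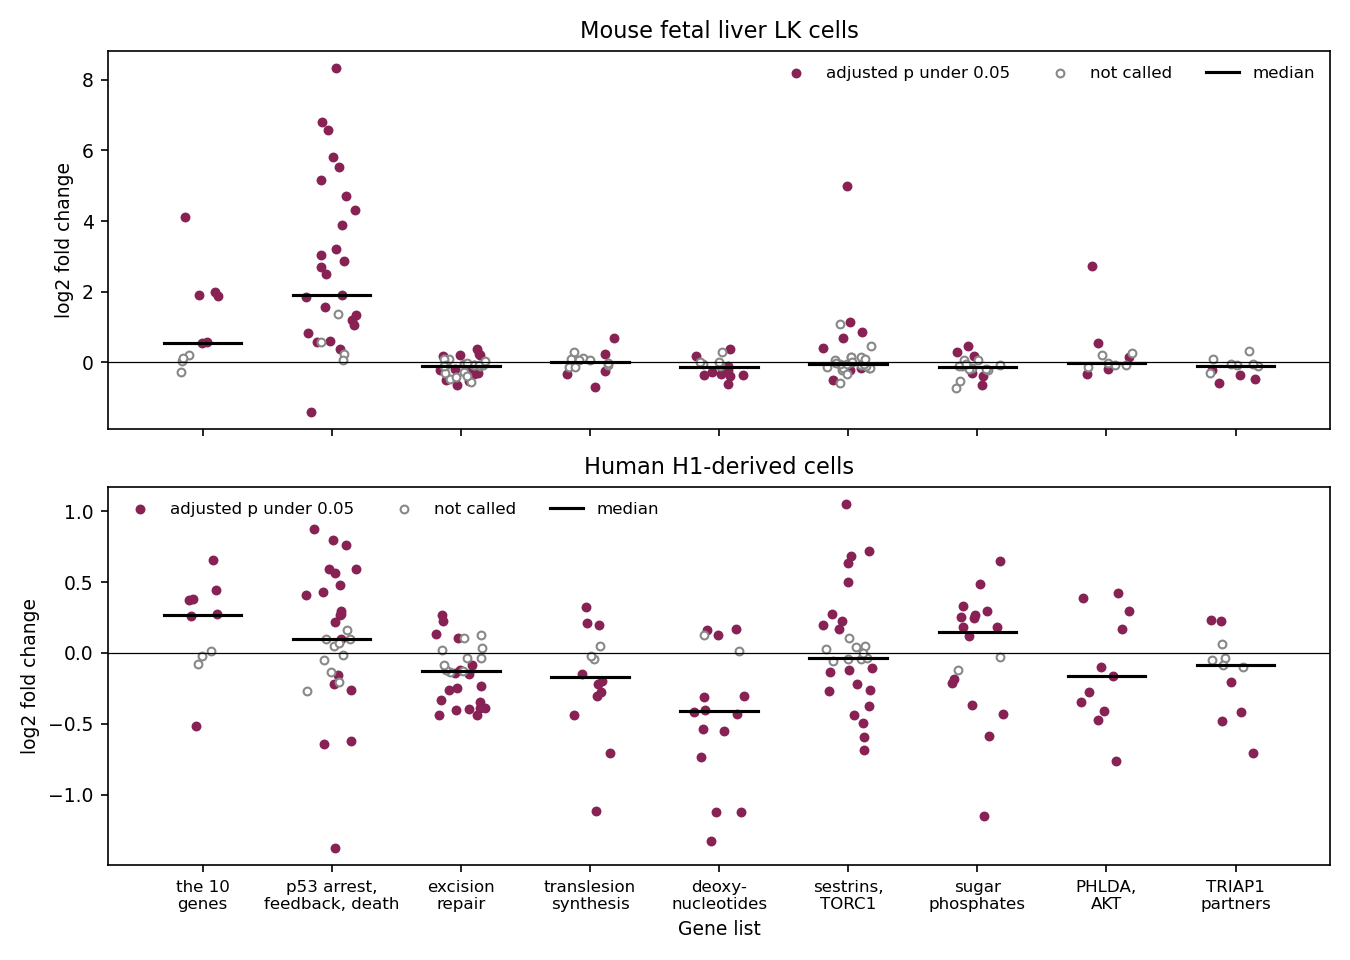
Log2 fold change of the 10 genes and of each pathway list, 1 point per tested gene, in the mouse (top) and the human cells (bottom). Filled points have an adjusted p under 0.05, open points do not, and black lines are medians. In the mouse the median of the p53 arrest, feedback and death list is 1.90 and that of each other pathway list lies between -0.14 and 0.023.

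Marker levels of other cell types also differed between the groups. In the mouse, the summed level of 8 hepatocyte markers was 10.7 to 12.3 CPM in WT and 41.6 to 46.2 CPM in cKO. Trf made up most of the WT sum and went from 10.0 to 13.7 CPM. Alb went from 0.417 to 12.1 CPM and Afp from 0.857 to 14.4 CPM. The 7 endothelial markers summed to between 46.0 and 49.8 CPM in WT and between 87.1 and 95.2 CPM in cKO (5 of 6 tested higher), and 5 megakaryocyte markers to 83.3 to 99.97 and 162 to 224 CPM (2 of 4 tested higher). Erythroid markers summed to 1820 to 1838 CPM in WT and 1090.3 to 1097 CPM in cKO (2 of 7 tested higher, 4 lower). Macrophage markers summed to 31.7 to 34.9 and 7.58 to 9.57 CPM (C1qc at 0 in all libraries), and granulocyte markers to 628 to 884 and 312 to 556 CPM (4 of 6 lower). The lineage markers gated out in the sort stayed at or below 4.17 CPM in sum in every library, and the progenitor markers summed to 1311 to 1349 CPM in WT and 1410.1 to 1422 CPM in cKO. Of the 6 progenitor markers 2 were called higher and 2 lower; Cd34 went from 134 to 215 CPM and Kit from 362 to 317 CPM. Human granulocyte markers summed to 172 to 184 CPM in shNC and 32.7 to 37.4 CPM in shDDX21 (3 of 3 matched lower), and megakaryocyte markers to 1484 to 1555 and 1763 to 1790.4 CPM (3 of 3 matched higher). Human erythroid markers summed to 1583 to 1605 and 1201 to 1217 CPM, with 4 of 8 higher and 3 lower, and the transferrin receptor TFRC, the most abundant, went from 1131 to 656 CPM. Of the 6 human progenitor markers 3 were called higher and 3 lower, with CD34 from 249 to 297 CPM and GATA2 from 435 to 200 CPM. Human endothelial markers had 3 of 6 tested higher and 2 lower, and macrophage markers 1 of 5 higher and 4 lower. The part of these differences in the changes of the 10 genes was not tested.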

How the data were processed

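RNA was counted in 12 libraries, 3 per group. Each experiment has a deposited table of raw counts, in whole reads for every gene. The deposited normalized tables (unit: signal) equal the count divided by 1 constant per library, to a relative deviation of 4.97e-10, and their deposited log2 columns give each value over the control mean; both served for symbols only. The submitters' processing notes list STAR, featureCounts, DESeq2, mm10 and hg38, with no versions or roles, and no strand setting.

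The count test was the quasi-likelihood test of edgeR 4.0.16, run in R 4.3.3 (filterByExpr, TMM, two-sided, Benjamini-Hochberg, threshold 0.05), with DESeq2 1.42.0 as an alternative, each experiment alone and then all 12 libraries for the interaction. The scripts were tested on simulated counts. Mouse positions are GRCm38, since 99.4% of matched identifiers have the same position in GENCODE M21. CPM per exon length uses the exon length of the deposited table, which counts all isoforms.

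Besides the 10 genes, the text names the nearest partner of each (Phlda2 fell under the filter in the mouse and was not matched in the human table), p21, MDM2 and DDX21, and up to 2 called genes with the smallest p per list; a few that the rule names are not reported here. The genes and lists were chosen with earlier results of these data known. Replicate pairs differed by more than sampling noise, with a chi-square per degree of freedom of 1.54 to 1.71 in the human groups, 1.96 to 15.7 in WT (replicate 3 apart from the other two) and 7.25 to 25.1 in cKO. All were kept.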

Additional observations from a re-analysis of the deposited data

Results flagged for a closer look

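The change differed between the mouse and the human experiment for 7 of the 10 genes, by the interaction term in edgeR's quasi-likelihood fit of all 12 libraries, and such differences were called for 56.2% of the 10313 matched genes. Each value is the mouse log2 fold change minus the human one. Spread was estimated over both experiments together, so the intervals and p-values may be too small. For PHLDA3 it was 3.67 (95% interval 3.32 to 4.02, adjusted p = 7.16e-09), between 17.4-fold in the mouse and 1.36-fold in the human cells. For ERCC5 it was 2.02 (1.76 to 2.28, adjusted p = 7.53e-08), where the human gene was not called and its level is uncertain. For POLK it was 1.97 (1.76 to 2.17, adjusted p = 1.41e-08), again with the human gene not called. For SESN2, higher in both experiments, it was 1.52 (1.27 to 1.77, adjusted p = 5.96e-07). For TIGAR, called in opposite directions, it was 1.06 (0.79 to 1.34, adjusted p = 2.18e-05). For DDB2 it was -0.65 (-0.98 to -0.33, adjusted p = 0.00275), and for SESN1 it was -0.61 (-0.78 to -0.44, adjusted p = 4.22e-05), both called in the human cells and not in the mouse.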

How the results depend on the processing

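No count of called genes among the 10, and no total over the pathway lists, moved beyond 1.5 times under any alternative run. The mouse pathway genes called lower did, from 34 to 20 with total counts, 22 without WT replicate 1, 21 without WT replicate 2 and 19 without cKO replicate 3. Of the 10 genes, 5 to 7 were called in the mouse when 1 library was left out, and 8 with total counts. Of the human genes 7 were called under every alternative run, and 7 to 9 differed between the experiments. With the replicate block, 6 mouse and 7 human genes were called and 7 differed. The numbers do not pair the samples. Same-number correlations were 0.32, -0.18 and 0.013 in the mouse and -0.014 to -0.00086 in the human cells. Not every library correlated best with its own number. In the mouse, WT replicate 3 correlated at -0.42 with cKO replicate 1 and at 0.41 with cKO replicate 2, which no fit modelled. Signs turned only for genes not called. Human ERCC5 was 0.044 with upper-quartile factors and -0.14 to 0.047 with 1 library left out. Human XPC was -0.016 with total counts and -0.040 to 0.059 with 1 library left out. Mouse Sesn1 was -0.023 to 0.074 with 1 library left out. Mouse Xpc was called with upper-quartile factors (adjusted p = 0.0383), total counts (0.0237) and without cKO replicate 2 (0.0243), and Triap1 with total counts (0.0494). The differences between experiments of XPC (0.30, adjusted p = 0.0190) and RRM2B (0.40, adjusted p = 0.0260) were called with total counts. The causes were not tested. With total counts, mouse calls over all genes were 3565 higher and 1612 lower, against 3083 and 2360. Counts as low as 45 limit the precision for Phlda3 in WT. The biological coefficient of variation was 10.5% in the mouse and 2.23% in the human cells.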
